A study of Homo sapiens with 4 samples.

Results

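Of 58827 distinct intervals bound by V5-tagged SOX2 or by its DNA-binding domain in human fibroblasts, 373 were shared between both proteins and lay at promoters of protein-coding genes. They were selected on the authors' deposited peak calls: an interval had to stand in the SOX2 list with a seventh column, which marks intervals that also stand in the list of the DNA-binding domain, and its centre had to lie within 1 kb of the start of a protein-coding transcript (GENCODE release 44 on GRCh37/hg19). Exact duplicates were counted once. All 373 had the same position and the same signal values in both lists.

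SOX2 is a transcription factor of the SOX family, which binds DNA in the minor groove through a high-mobility-group (HMG) domain. It is a pioneer factor, able to engage its sites on DNA wrapped around nucleosomes, and with OCT4 it maintains the pluripotent state and serves in reprogramming fibroblasts. The parts of the protein outside the HMG domain include its transactivation region. Promoters are the regions around transcription starts. Many lie in CpG islands, stretches rich in G, C and CpG that are usually free of nucleosomes at the start, while others are CpG-poor.

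Binding was measured by CUT&RUN, where nuclease tethered through an antibody cuts around the bound protein and the fragments set free are sequenced. The cells were BJ fibroblasts, an established line from human foreskin. One group ectopically expressed full-length SOX2 and the other its DNA-binding domain (SOX2-DBD), both carrying the V5 epitope, for 48 h. Of 4 samples, 2 per group, the lists attached to replicate 1 of each group were analysed, and whether they were called on that replicate alone is not given in the sources used here. There were no separate values of replicates, no p-value is given, and the intervals on shares (Wilson or, for differences, Newcombe, 95%) cover counting error over intervals only. The depth of the libraries is unknown, a group without an introduced protein was not analysed here, and no expression was measured, so the fibroblast identity could not be checked against marker genes.

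The sequences of several members carry the motifs that the results turn on. All are from GRCh37/hg19, read 5′ to 3′ on the plus strand of the chromosome, and none overlaps an annotated exon of a protein-coding transcript. The first set holds members with the highest value in the seventh column, and capitals mark the SOX core (ACAAAG or ACAATG on either strand). EOGT encodes an O-GlcNAc transferase of the endoplasmic reticulum and NREP the neuronal regeneration related protein.
EOGT (chr3:69059043-69059162): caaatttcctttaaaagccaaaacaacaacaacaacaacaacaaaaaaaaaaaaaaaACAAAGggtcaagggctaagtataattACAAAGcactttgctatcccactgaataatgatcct
NREP (chr5:111332625-111332744): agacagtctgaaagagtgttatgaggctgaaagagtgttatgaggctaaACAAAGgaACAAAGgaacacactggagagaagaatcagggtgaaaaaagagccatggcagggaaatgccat

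The second set holds the members with the highest total signal among those with both a SOX core and an AP-1 motif (TGACTCA or its reverse complement TGAGTCA, the binding sequence of FOS-JUN dimers), and capitals mark both. EPS8 encodes an actin-capping adaptor of receptor tyrosine kinases, ABHD3 a phospholipase, and ABI3BP a protein of the extracellular matrix.
EPS8 (chr12:15881375-15881494): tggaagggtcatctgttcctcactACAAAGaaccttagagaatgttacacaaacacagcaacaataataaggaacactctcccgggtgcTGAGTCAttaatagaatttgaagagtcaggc
ABHD3 (chr18:19236563-19236682): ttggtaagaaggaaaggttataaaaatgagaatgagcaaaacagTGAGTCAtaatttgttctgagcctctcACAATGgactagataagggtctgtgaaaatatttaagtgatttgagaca
ABI3BP (chr3:100529538-100529657): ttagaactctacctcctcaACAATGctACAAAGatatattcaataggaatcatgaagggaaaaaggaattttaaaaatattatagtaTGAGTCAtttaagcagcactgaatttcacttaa

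The third set holds members upstream of histone genes of the cluster on chromosome 6, and capitals mark the CCAAT box (CCAAT or ATTGG), the sequence bound by the NF-Y complex. H2BC3 encodes a histone H2B and H2AC8 a histone H2A.
H2BC3 (chr6:26044028-26044147): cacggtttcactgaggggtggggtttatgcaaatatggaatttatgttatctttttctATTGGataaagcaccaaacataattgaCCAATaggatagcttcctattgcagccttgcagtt
H2AC8 (chr6:26217022-26217141): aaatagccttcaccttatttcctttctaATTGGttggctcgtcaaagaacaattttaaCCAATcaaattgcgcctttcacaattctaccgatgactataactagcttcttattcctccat

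The last set was chosen after its values were seen and holds the members with the most CCAAT boxes among those whose DNA was rich in G and C. KHSRP encodes an RNA-binding splicing regulator, SP2 a zinc finger transcription factor, EIF2AK3 the kinase PERK of the unfolded protein response, and FAM72D belongs to a family of near-identical gene copies, so that reads of that family could be placed at the wrong copy.
FAM72D (chr1:143913368-143913487): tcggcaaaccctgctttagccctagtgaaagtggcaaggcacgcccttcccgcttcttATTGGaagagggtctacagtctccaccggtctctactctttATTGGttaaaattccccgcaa
SP2 (chr17:45973307-45973426): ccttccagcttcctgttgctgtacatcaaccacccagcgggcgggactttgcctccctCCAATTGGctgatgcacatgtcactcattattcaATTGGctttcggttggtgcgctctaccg
EIF2AK3 (chr2:88927258-88927377): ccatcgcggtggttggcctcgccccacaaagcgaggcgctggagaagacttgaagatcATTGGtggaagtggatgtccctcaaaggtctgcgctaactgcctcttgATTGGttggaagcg
KHSRP (chr19:6425177-6425296): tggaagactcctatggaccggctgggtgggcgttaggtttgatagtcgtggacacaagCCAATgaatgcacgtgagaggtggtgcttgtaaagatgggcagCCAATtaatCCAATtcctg

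The 373 members made up 2.61% (2.36 to 2.88) of the 14300 shared intervals. Among intervals of the SOX2 list without a seventh column (SOX2-only), 695 of 43607 lay at such promoters, 1.59% (1.48 to 1.72). The difference was 1.01 percentage points (0.738 to 1.31). Among the 920 intervals listed only for SOX2-DBD, 51 lay at promoters, 5.54% (4.24 to 7.22). Shared binding was therefore rare at promoters in number, and its promoter share lay above that of SOX2-only binding and below that of the small SOX2-DBD-only class.

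Read from the promoter side, 373 of the 1068 SOX2-list intervals within 1 kb of a start were shared, 34.9% (32.1 to 37.8). Beyond 1 kb 13927 of 56839 were shared, 24.5% (24.2 to 24.9), a difference of 10.4 points (7.60 to 13.4). The share was higher next to the start. It was 28.8% between 750 and 1000 bp, 24.9% between 500 and 750 bp, 35% between 300 and 500 bp, 49.6% between 100 and 200 bp and 51.2% (42.6 to 59.6) within 100 bp, where 66 shared and 63 SOX2-only intervals were centred.

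Per megabase of DNA at each distance, the density of shared intervals lay between 3.62 and 7.28, and that of SOX2-only intervals, from 50 kb inwards, was lower in each shell nearer the start with 9.96 between 300 and 500 bp and 9.93 between 200 and 300 bp. Shared intervals numbered 6.09 per Mb between 10 and 50 kb from a start, 5.30 between 1 and 2 kb, 3.62 between 500 and 750 bp and 6.57 within 100 bp. SOX2-only intervals numbered 19.9 per Mb between 10 and 50 kb, 13.4 between 1 and 2 kb, 10.9 between 500 and 750 bp and 6.27 within 100 bp. Beyond 50 kb both were lower, at 3.73 shared and 10.7 SOX2-only intervals per Mb. Between 500 to 750 bp and the first 200 bp the shared density was higher (7.28 between 100 and 200 bp) and the SOX2-only density lower, so that both went with the higher shared fraction next to starts.

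**Figure D1:**
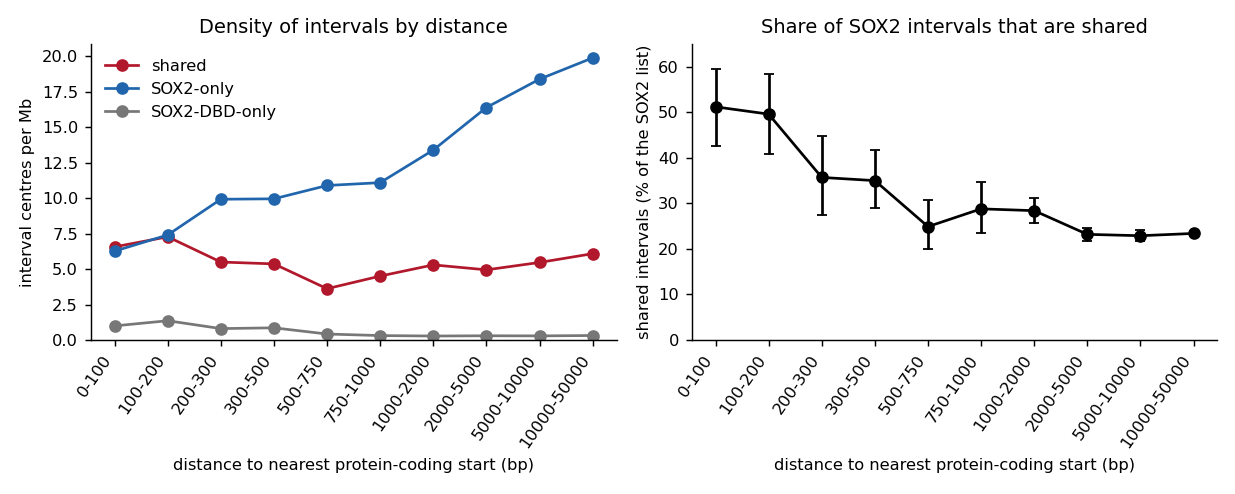
Left, number of intervals per Mb of DNA in shells of distance from the nearest protein-coding start, for shared, SOX2-only and SOX2-DBD-only intervals; right, percent of SOX2-list intervals that were shared in each shell, with Wilson 95% bars. The SOX2-only density is 19.9 per Mb between 10 and 50 kb and 6.27 within 100 bp, where the shared density is 6.57 per Mb, and beyond 50 kb it is 10.7.

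Within the 1 kb window the members sat close to the start and mostly before it. A total of 230 of 373 centres (61.7%) were upstream of the nearest start, against 374 of 695 (53.8%) of SOX2-only promoter intervals, a difference of 7.85 points (1.62 to 13.9). Within 250 bp lay 148 members (39.7%) and 162 SOX2-only intervals (23.3%), a difference of 16.4 points (10.5 to 22.2). The 200 bp just before the start held 88 members (23.6%) against 81 SOX2-only intervals (11.7%).

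**Figure D2:**
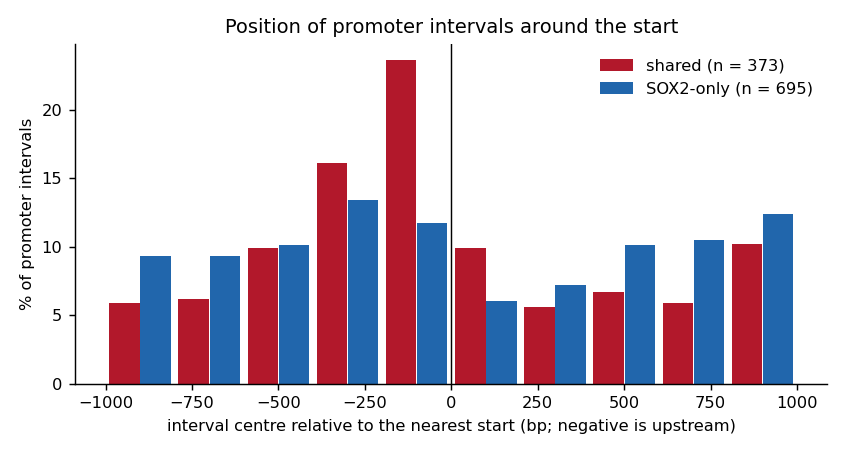
Percent of intervals of each class in 200-bp bins of signed distance from interval centre to the nearest protein-coding start (negative is upstream), for 373 shared and 695 SOX2-only promoter intervals. The bin just upstream of the start holds 23.6% of the shared and 11.7% of the SOX2-only intervals.

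Most of the starts concerned were not the main start of their gene, which holds for annotated starts in general. The annotation held 78564 distinct protein-coding starts for 19794 genes. Among members, 139 (37.3%) lay within 1 kb of an Ensembl canonical start, the transcript chosen to represent a gene. That share was above the 158 of 695 (22.7%) of SOX2-only promoter intervals, by 14.5 points (8.77 to 20.4), and the SOX2-DBD-only class had 36 of 51 (70.6%). Position was read against protein-coding transcripts only, without non-coding ones. By it, 241 member centres (64.6%) fell in introns, 74 (19.8%) outside these transcripts, 50 (13.4%) in untranslated regions and 8 (2.14%) in coding sequence. Relative to SOX2-only promoter intervals, introns held 13.1 points fewer members (difference -13.1, -18.9 to -7.39), and DNA outside protein-coding transcripts held 8.62 points more (4.09 to 13.5).

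The genes were long and had many annotated starts. Genes with a shared promoter interval had a median length of 78.5 kb and 6 distinct starts, against 27.0 kb and 3 starts over all 19794 protein-coding genes, and 94.6 kb and 6 starts for genes with a SOX2-only promoter interval. A gene with more starts offers more windows for the rule, and the part of this in the gene lists was not tested.

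The starts bound were mostly CpG-poor. Of all 78498 distinct protein-coding starts, 44352 (56.5%) were CpG-rich, defined here as GC content of at least 50% and an observed to expected CpG ratio of at least 0.6 over 500 bp. Among members 79 (21.2%, 17.3 to 25.6) had a CpG-rich nearest start, and among SOX2-only promoter intervals 54 (7.77%, 6.0 to 10.0). Shared intervals were thus more often at CpG-rich starts than SOX2-only ones, by 13.4 points (8.97 to 18.2), while both classes were poor in them. Per 1000 starts there were 1.78 members at CpG-rich and 8.61 at CpG-poor starts, and 1.22 and 18.8 SOX2-only intervals.

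The DNA of the members was correspondingly less AT-rich than that of SOX2-only promoter intervals. In the 200 bp at the centre, mean GC content was 38.8% (SD 8.12 over 373 members) against 34.4% (SD 5.96 over 695), a difference of 4.40 points (SE 0.477). A GC content of 50% or more was found in 44 members (11.8%) and 17 SOX2-only promoter intervals (2.45%), a difference of 9.35 points (6.12 to 13.1). Away from promoters such DNA was hardly present among shared intervals, at 48 of 13927 (0.345%).

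Members had a somewhat lower total signal than shared intervals as a whole and, like other shared intervals, were listed with shorter widths than SOX2-only ones. Their median width was 357 bp (quartiles 253 and 468), against 373 bp in shared distal and 546 bp in SOX2-only promoter intervals. Under 50 bp were 10 members, 399 of 13927 shared distal and 0 of 695 SOX2-only promoter intervals. Their total signal, as deposited by the authors, had a median of 2524 (quartiles 1828 and 3689). Of the 373, 156 (41.8%, 36.9 to 46.9) lay above the median of all shared intervals, 2742. In some members this total cannot be a sum over the listed interval. A member at TMEM87B, 11 bp wide with a maximum of 10, had 3515, and IL1F10, 28 bp wide with a maximum of 12, had 4396. The library in which this signal was measured is not given in the sources used here, so it serves only to order intervals within the list. In 81 members (21.7%) the deposited region of maximum signal lay at least partly outside the interval. This held for 24.4% of shared distal and 0 of the SOX2-only promoter intervals. Comparisons of shared and SOX2-only intervals by width or at their centres thus set unlike intervals side by side, and the shorter width is not read as a trait of binding. The same signal values as another member were found in 14 members.

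Sequence was not part of the rule. The SOX core was found in 182 of 373 member windows (48.8%) and in 46.8% of SOX2-only promoter windows, a difference of 2.03 points (-4.23 to 8.29), so that a difference of either sign up to those bounds is within counting error. All shared distal intervals gave 48.3%, and windows centred on all protein-coding starts gave 13.8%. Those starts had a median GC content of 61.8% over 500 bp, against 37.0% in the 200-bp member windows. The starts are thus not matched to members in base composition, and the part of this in the motif shares was not tested. At promoters, then, shared and SOX2-only binding did not differ detectably in how often they held the SOX core. The core declined with distance from the member centre, from 48.8% within 100 bp to 27.1% between 400 and 500 bp, and in SOX2-only promoter intervals from 47.6% to 25.9%.

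The AP-1 motif differed. It stood in 55 member windows (14.7%, 11.5 to 18.7) and in 54 of 695 SOX2-only promoter windows (7.77%), a difference of 6.98 points (3.04 to 11.3). Windows at all starts, which are not matched in GC content, held it in 2.45%. Shared distal intervals held it in 17.0%, a difference from members of -2.24 points (-5.54 to 1.76). The motif was concentrated at the member centres, with 15.3% within 100 bp and 2.95% between 400 and 500 bp, against 7.91% and 3.17% around SOX2-only centres. The size depended on the window: the difference was 3.58 points (0.621 to 7.04) in windows of 100 bp, and 4.27 (0.551 to 8.41) in windows at the maximum signal.

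The AP-1 difference was seen at CpG-poor starts and not detected at CpG-rich ones, in a split chosen after the data were seen. There 51 of 294 members (17.3%) and 50 of 641 SOX2-only intervals (7.80%) held the motif, a difference of 9.55 points (5.00 to 14.6). At CpG-rich starts 4 of 79 members (5.06%) and 4 of 54 SOX2-only intervals (7.41%) held it, a difference of -2.34 (-12.9 to 6.18). The 2 differences were not tested against each other. AP-1 and the SOX core stood together in 23 members (6.17%), AP-1 alone in 32, the SOX core alone in 159 and neither in 159.

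The RUNX motif (TGTGGTT), bound by the RUNX factors of mesenchymal and blood lineages, followed AP-1. It stood in 29 members (7.77%) and 3.17% of SOX2-only promoter windows, a difference of 4.61 points (1.81 to 7.95), beside 6.81% of shared distal windows. The TATA box (TATAAA) ran the other way, at 23.9% and 32.2%, a difference of -8.37 points (-13.8 to -2.69). Small positive differences were found for the ETS motif (CCGGAAG, 8 members, 1.86 points, 0.560 to 3.90) and the E-box (CACGTG, 1.80 points, 0.0968 to 4.12). Of 14 motifs counted, 6 had an interval that excluded 0, with no adjustment for the number counted.

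The CCAAT box, like AP-1, was more frequent in members. It stood in 150 members (40.2%, 35.4 to 45.3) against 28.9% of SOX2-only promoter windows, a difference of 11.3 points (5.32 to 17.3), and against 26.9% of shared distal windows, a difference of 13.3 points (8.36 to 18.4). Within bands of GC content the mean difference from SOX2-only promoters was 6.19 points and its interval included 0 (-0.373 to 12.8). In windows of 100 or 400 bp and at the maximum signal it was 6.72 to 7.29 points, with intervals above 0.

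**Figure D3:**
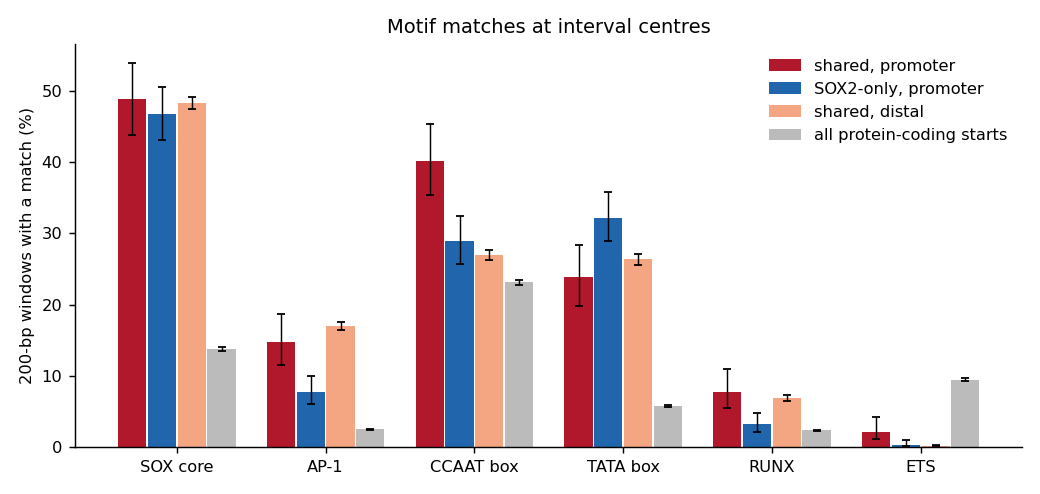
Percent of 200-bp windows with each of 6 motifs in shared promoter, SOX2-only promoter and shared distal intervals and at all protein-coding starts, with Wilson 95% bars. The windows at all starts are not matched to the intervals in GC content. AP-1 stands at 14.7% in shared and 7.77% in SOX2-only promoter intervals, CCAAT at 40.2% and 28.9%, and the SOX core at 48.8% and 46.8%.

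**Figure D4:**
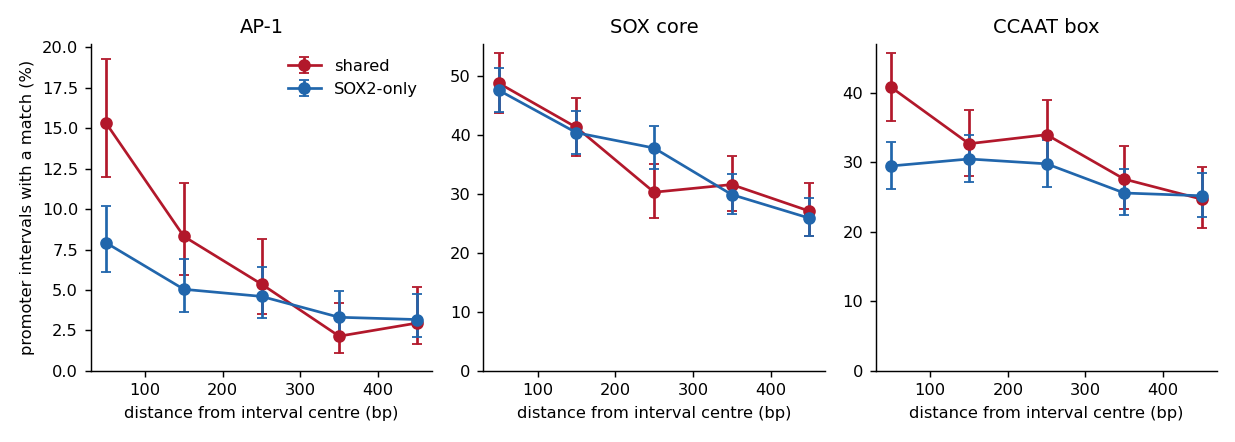
Percent of intervals with an AP-1 motif, a SOX core or a CCAAT box in bins of 100 bp by distance from the interval centre, for shared and SOX2-only promoter intervals, with Wilson 95% bars. AP-1 falls from 15.3% to 2.95% around shared centres and from 7.91% to 3.17% around SOX2-only centres.

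Sorted by their own base composition, the members fell along a range with different positions and motifs at its ends. The 128 members under 35% GC had a median signed distance of 112 bp and 26 of them (20.3%) were near a canonical start. They held AP-1 in 16.4%, the SOX core in 47.7% and CCAAT in 28.9%. The 201 members from 35% to under 50% GC had a median of -130 bp, with 66.2% upstream and 35.8% near a canonical start, and held AP-1 in 16.4%, the SOX core in 56.2% and CCAAT in 39.3%.

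The 44 members at 50% GC or more stood at the other end. Of them 36 (81.8%) were upstream, at a median of -155 bp, and 41 (93.2%) were near a canonical start. AP-1 stood in 1 (2.3%) and the SOX core in 8 (18.2%, 9.51 to 32.0). These shares were near those of windows at all protein-coding starts, 2.45% for AP-1 and 13.8% for the SOX core. CCAAT stood in 34 (77.3%, 63.0 to 87.2), and 23 (52.3%, 37.9 to 66.2) held at least 2 boxes. The share with CCAAT was 42.0 points (26.8 to 53.1) above that of the other members (35.3%). This grouping was chosen after the data were seen.

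Such CCAAT content was above that of windows at all CpG-rich starts. Those starts are canonical and alternative ones together, whereas 93.2% of these members were near canonical starts, so the sets are not matched. Windows centred 100 bp upstream of all CpG-rich starts held CCAAT in 26.9% and at least 2 boxes in 9.33%, the highest of the 5 positions from 0 to 400 bp upstream that were measured. It was shared with the SOX2-only promoter intervals of the same GC content, of which 14 of 17 (82.4%, 59.0 to 93.8) held CCAAT (difference -5.08, -23.4 to 20.3). SOX2-DBD-only promoter intervals of that GC content held it in 5 of 18 (27.8%, 12.5 to 50.9), which was 49.5 points (22.3 to 67.7) below the members. In the 44 members 43 boxes were on the strand of the gene and 29 on the other, and neighbouring boxes were a median of 43 bp apart (quartiles 31.25 and 77.75, 38 pairs).

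**Figure D5:**
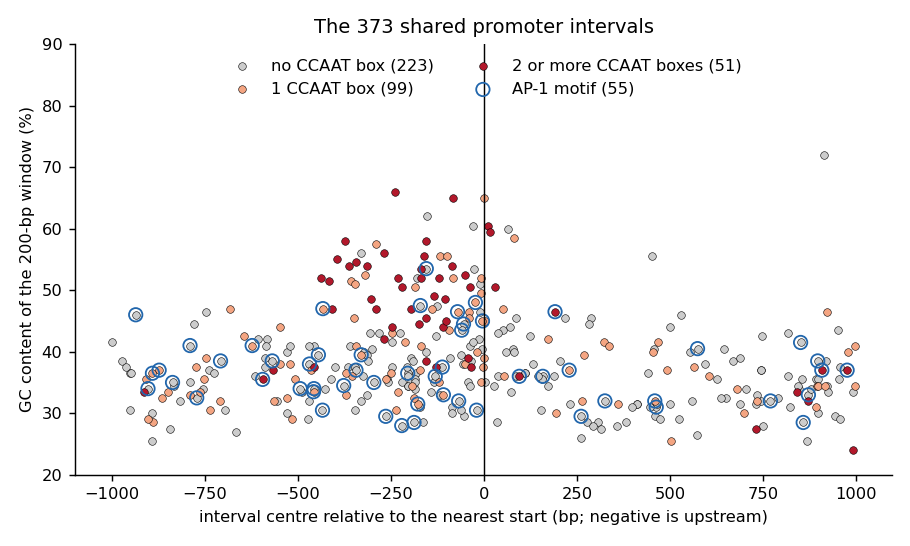
Each of the 373 members by signed distance from the nearest protein-coding start (x axis, bp) and GC content of its 200-bp window (y axis, percent), coloured by its number of CCAAT boxes (0 in 223, 1 in 99, 2 or more in 51) and ringed where it holds AP-1 (55 members). The 44 members at 50% GC or more lie mostly upstream of the start and hold AP-1 in 1 case.

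Several of these GC-rich members lay at genes of RNA-binding proteins. KHSRP was bound 363 bp upstream with a total signal of 3912 and 3 CCAAT boxes in its window. HNRNPL and HNRNPUL1, RNA-binding proteins of the heterogeneous nuclear ribonucleoprotein class, were bound at -395 and -438 bp with signals of 3009 and 3868 and 2 boxes each. RBM15, a further RNA-binding protein, was bound at -168 bp with a signal of 3807 and 2 boxes. These genes were chosen after their values were seen, and no enrichment was tested.

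Regulators of transcription in the GC-rich set included SP1 and SP2, both zinc finger transcription factors. SP1 was bound at -358 bp with a signal of 3193 and 1 CCAAT box, and SP2 at -169 bp with 1863 and 4 boxes. CIC, a repressor downstream of receptor tyrosine kinases, was bound at -343 bp with 2656 and 3 boxes. NFYA, a subunit of the CCAAT-binding complex itself, was bound at -152 bp with 1861 and no box in its window.

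Further GC-rich members were TOMM40, the channel of the mitochondrial outer membrane translocase (-238 bp, 2338, 3 boxes), and EIF2AK3 (-314 bp, 1300, 4 boxes). The gene GSK3B was bound 10 bp downstream of its start (2226, 2 boxes, seventh column 1). GSK3B encodes a kinase of WNT and insulin signalling. Starts of 2 genes on opposite strands were near 18 of the 373 members (4.83%) against 12 SOX2-only promoter intervals (1.73%), a difference of 3.10 points (0.937 to 5.87).

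The SOX2 gene itself was a member with a total signal far above most others. It had 95465 at chr3:181430151-181431102, an interval of which 99.7% was coding sequence and which covered 99.8% of the SOX2 coding sequence. SOX2 was the protein introduced into these cells, and the part of introduced DNA in that interval was not tested. The next lower member, RXFP1, a relaxin receptor gene, had 12661.

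The SOX2 interval held no SOX core and no AP-1 motif in its window, and its GC content was 72.0%. HBB, the beta-globin gene, ranked sixth by total signal, with 9752 listed for an interval of only 108 bp (chr11:5247718-5247825). Its maximum was 133, against a median maximum of 11. The part of introduced DNA in the HBB interval was not tested either. Leaving out SOX2 and HBB, an alternative chosen after the data were seen, gave an AP-1 difference of 7.06 points and a GC difference of 4.29 points. Without SOX2, 43 GC-rich members remained, and 79.1% of them held CCAAT.

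Of the other strong members, those at DHX32, SPAG9, GAS2L3 and ADGRL4 lay at alternative starts, and those at MYOZ2, GBP5 and ENSG00000288614 near canonical ones. DHX32, a helicase gene, had 11214 in an intron, and SPAG9, a scaffold of JNK signalling, had 10598 in an intron at -236 bp. GAS2L3, a linker of actin and microtubules, had 9417, and ADGRL4, an adhesion receptor of endothelium, had 8713 with a seventh-column value of 2. MYOZ2, a protein of the muscle Z-disc, held 2 members with the same total of 8651, and a start lay between them. GBP5, an interferon-induced GTPase, had 8592, and the unnamed protein-coding gene ENSG00000288614 had 8323 and 1 AP-1 motif.

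What the seventh column counts is not given in the sources used here. It was 0 in 256 members, 1 in 97, 2 in 16 and 3 in 4. The SOX core was found in 39.8% of members with 0, in 67.0% with 1, in 75% with 2 and in 75% with 3. Column and rule share their source, since every member has a value there, but the value itself was not used to select members. A value of 1 or more was held by 117 members (31.4%, 26.9 to 36.2) and 34.6% of shared distal intervals.

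EOGT, NREP and ART3 were among the members with the value 3. The EOGT member (chr3:69058793-69059371) was an intron site 85 bp upstream of an alternative start, with a total signal of 3399 and 3 SOX cores in its window. The NREP member (chr5:111332597-111332840) had 2732 and 2 cores. ART3, an ADP-ribosyltransferase gene, had 1946, no 6-base core, and 1 match to the longer motif AACAATGG or AACAATAG. ADGRL4, PDHX, RRAS2 and ATP2C1 led the members with the value 2, at total signals of 8713, 6056, 5783 and 5610, and of these PDHX and ATP2C1 held no core.

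The members with both AP-1 and the SOX core were next ordered by their total signal. EPS8 had a total signal of 6083 at -296 bp, ABHD3 5617 at 261 bp and ABI3BP 4410 at 463 bp. PSME3IP1, whose product binds a proteasome activator, had 3715 and ABL2, a tyrosine kinase of the actin cytoskeleton, 3698. MEF2C, a MADS-box transcription factor, had 3510 and 2 AP-1 motifs, ANTXR2, a receptor for matrix proteins, 3424 and DDX60L, an interferon-induced helicase, 3342. Of these 8 members 7 were in introns, beside 64.6% of all members. A CpG-poor nearest start was found for 7 of the 8, beside 294 of all 373 members. With 8 members these counts set no trait apart from the members as a whole.

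Some genes held several members, at the same or at different starts. In all 28 genes were nearest to 2 or more members, which accounted for 62 members. NREP had 4, of which 2 lay on either side of the same start, with total signals of 3707, 3736, 1874 and 2732. EPS8 had 3, with 6083 at a downstream start and 2631 and 6038 on either side of another start further upstream. LAMC1, the laminin gamma 1 chain, had 3 short intronic intervals with 3809, 3809 and 4084, and the first 2 share 1 set of signal values. MEF2C had 3, with 3510, 3510 and 4677, again with 1 repeated set.

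By gene, 358 of 19794 protein-coding genes (1.81%) had a shared interval within 1 kb of a start, and 654 (3.30%) a SOX2-only one. Both kinds were found at 52 genes. Of 19 gene lists, on fibroblast and SOX2 biology and on other gene families, 9 held no gene with a shared promoter interval. Those without any included the 14 AP-1 genes, 38 fibroblast matrix genes, 18 TGF-beta pathway genes, 23 pluripotency genes, 22 neural genes and 88 ribosomal protein genes. At these list sizes a background of 1.81% gives few genes, so that an empty list is no result about it.

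Of the 19 lists, histone genes held the most genes with a shared promoter interval, 7 of 81 (8.64%) against the background of 1.81%, through 6 intervals. Histone genes are short, lie in clusters and are transcribed in S phase, and 4 of the 81 had a SOX2-only interval. H2BC3 was bound 130 bp upstream (chr6:26043892-26044249, total signal 2092) with 3 CCAAT boxes and an octamer motif (ATGCAAAT) in its window. H2AC8 was bound at -36 bp (2068, 2 boxes) and H3C6 at -156 bp (1470, 2 boxes).

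H2AC21 on chromosome 1 was bound at -175 bp (1903) with 2 CCAAT boxes and an octamer, in the stretch next to BOLA1. An interval with 1324 lay between H2AC4 and H3C2 and held neither motif. H3-3B, a replacement histone gene that is not tied to S phase, was bound at -623 bp (1772) and held 2 SOX cores and 1 AP-1 motif. Histone genes of one class are near-identical in their coding sequence, and how reads that fit several copies were placed is not given in the sources used here.

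Other lists held few genes, set beside 1.81% of all protein-coding genes. The fibroblast and signalling lists held YAP1, the Hippo coactivator (1 of 16 TEAD and YAP genes, total signal 1482), TCF4 (1 of 24 fibroblast transcription factors, 2220) and DUSP6, an ERK phosphatase (1 of 31 growth factor genes, 1377). CALD1 and PDLIM5, both bound to actin, were 2 of 31 actin genes (1271 and 4263), and LIMS1 was 1 of 21 integrin genes (2435). Of 20 SOX genes SOX2 and SOX6 were members (10.0%), and SOX6 had 3475 with an AP-1 motif. That share counts the SOX2 interval, which covered 99.8% of the coding sequence of the introduced gene.

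The large families lay below the background of 1.81%. Of 508 zinc finger ZNF genes 4 had a shared promoter interval (0.787%): ZNF624 with 3799, ZNF275 with 2709, ZNF532 with 1865 and ZNF217 with 1311. Of 381 olfactory receptors 1 did (0.262%), OR56B1 with 6935. No keratin, HOX or protocadherin gene of the lists did. VPS29, a retromer subunit on the list of 29 housekeeping genes, had 1197.

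Members near the limit of 1 kb show what the limit decided. Just inside were C7orf25 at -999 bp (total signal 1815), ATF7IP at 998 bp (1314) and PLCXD2 at 998 bp (1221). Just outside were shared intervals at NEDD4L at 1004 bp (5006), SLC38A4 at -1005 bp (5956) and TRMO at -1007 bp (1255). A limit of 500 bp kept 241 intervals and a limit of 2 kb gave 692.

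In the down-sampled SOX2 list, which is attached to the same sample, 240 of 373 members (64.3%, 59.4 to 69.0) overlapped an interval by at least 1 bp. SOX2-only promoter intervals did so in 458 of 695 cases (65.9%), a difference of -1.56 points (-7.61 to 4.36), and shared distal intervals in 64.3%. A difference within those bounds was not detectable.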

How the data were processed

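Peak lists of V5 CUT&RUN in BJ fibroblasts were analysed, 1 for SOX2, 1 for SOX2-DBD and 1 down-sampled for SOX2. The submitters' processing notes name Bowtie2 2.3.4.1, SAMtools, bedtools 2.27.1, SEACR 1.3, deepTools 3.5.0 and the build hg19. They give no role, threshold or order for these tools, and do not say whether replicates were pooled. The authors deposited a total and a maximum signal with each interval, with unstated normalization. Both were used only to order and describe intervals. The seventh column is also the authors' deposited value, of unstated meaning. In the SOX2 list 15954 lines carried it, and 1654 exact duplicate lines were removed. No interval reached beyond a chromosome end of GRCh37.

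Interval centres were assigned to the nearest start of a protein-coding transcript of a protein-coding gene (GENCODE release 44 mapped to GRCh37). GC content and 14 motifs, on both strands, were taken from the 200 bp at each centre. Shares carry Wilson and differences Newcombe 95% intervals, which cover counting error over intervals only. Intervals are not replicates, neighbouring ones can share signal, and no p-value was computed.

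The members, gene lists and comparisons were chosen with earlier results of these data known. Genes named are the 12 members with the highest total signal, up to 8 with the highest seventh column, up to 8 with both AP-1 and SOX core, members at listed genes, the 3 members and 3 other shared intervals nearest to the limit, and genes with several members (examples given). Some items that these choices select are not reported here. GC-rich members are outside this rule and were named after their values were seen. Alternatives covered the promoter limit, the transcripts, the window, the interval width, the signal, duplicates, and GC and distance bands. The code was tested on simulated data: a planted promoter share of 3.00% was recovered as 3.00% over 14000 intervals, 500 of 500 nearest starts equalled a brute-force search, and a planted AP-1 share of 25.0% was recovered as 25.0% over 4000 windows. Software was matplotlib 3.10.9, pyfaidx 0.9.0.4, scipy 1.17.1, pandas 2.3.3 and numpy 2.4.6 under Python 3.11.15.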

Additional observations from a re-analysis of the deposited data

How the results depend on the processing

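Of 44 alternatives over all results, 33 left the value within its counting interval or within 1.5 times the count, 10 moved it and 1 turned its sign. The number of members was 241 with a limit of 500 bp, 692 with 2 kb and 139 with canonical transcripts only, and the number of genes was 146 with canonical transcripts. The promoter share of shared intervals was 2.18% among the upper 50% by signal, 1.69% with 500 bp, 3.03% when any overlap with the 1 kb window counted and 0.972% with canonical transcripts. The difference from SOX2-only was 0.718 points in the upper 50% by signal and 0.610 with canonical transcripts, and remained above 0 with its interval in all alternatives run. The AP-1 difference turned to -2.34 points at CpG-rich starts, a split added after seeing the data, and lay between 3.58 and 10.4 points otherwise. By GC band it was 9.23, 8.0, 11.7, 2.21 and -4.15 points from the lowest to the highest band, and by distance band 7.96, 9.73, -1.06 and 11. The SOX core difference ranged from -1.79 to 4.90 points, and every interval included 0. The CCAAT alternatives, the splits by CpG-rich and CpG-poor starts (SOX core, 4.90), the SOX core within distance bands, the merging of intervals with the same signal values and leaving out SOX2 and HBB were chosen after seeing the data. No paired analysis was possible because 1 list per group, attached to replicate 1, was analysed, and for the same reason no replicate could be left out. The unknown depth limits every statement on intervals that were not called.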

Other observations

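Gene families picked after the members had been seen are given as values with no test. Of 43 interferon-stimulated genes 7 had one (16.3%, against 1.81% of all genes): DDX60, DDX60L, GBP5, IFI44L, IFIT3, SAMD9 and TRIM22. TRIM22, an antiviral ubiquitin ligase, had a total signal of 4829 at 37 bp from a start and 1 SOX core. IFI44L had 4182 at -529 bp and 1 SOX core. IFIT3, an inhibitor of viral RNA translation, had 3481 at 204 bp, SAMD9 had 1748 at 1 bp and DDX60 had 1229 at -205 bp. Neighbouring genes of this kind lie in clusters, and DDX60 and DDX60L are neighbours on chromosome 4. Because the list was put together from the members, its share is no evidence of enrichment.

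The other families picked in this way are set against the same 1.81%. Of 23 matrix metalloproteinase genes MMP7, MMP10 and MMP28 had a shared promoter interval (13.0%), of 24 hnRNP genes HNRNPC, HNRNPL, HNRNPLL and HNRNPUL1 did (16.7%), of 11 NEK kinase genes NEK1, NEK7 and NEK10 did (27.3%), and of 94 keratin-associated protein genes 2 did (2.13%), with 5 at a SOX2-only interval. By chromosome, members per 1000 protein-coding starts were highest on chromosomes 6 (8.52, 31 members), 3 (7.73, 37) and 18 (7.47, 10). The lowest values were 2.10 on chromosome 19 (12), 1.85 on 16 (7), 1.78 on 22 (3), 0.690 on X (2) and 0 on Y. Another shared interval lay within 10 kb of 116 members (31.1%) and of 27.6% of shared distal intervals, and a SOX2-only interval within 10 kb of 167 members (44.8%) and of 45.1% of shared distal intervals.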
